A study of Mus musculus with 9 samples.

Results

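The RNA of dorsal root ganglia (DRGs), the ganglia beside the spinal cord that hold the cell bodies of somatosensory neurons, was compared between E18.5 mouse embryos that lost Meis2 and embryos that carried the same Cre allele alone. The libraries were taken by their labelled genotype, 3 mutant and 3 Isl1Cre/+ libraries out of 9 in the series. Of 55247 annotated genes 13200 were tested, those that reached 100 counts in 1 or more of the 9 libraries. Mutant embryos were Isl1Cre/+::Meis2LoxP/LoxP, with exon 8 of Meis2 flanked by LoxP sites on both copies. Isl1Cre/+ embryos had unmodified Meis2, and both groups carried Cre in 1 copy of Isl1, so that the presence of this allele was equal between them. The 3 WT libraries carried neither allele and are given beside the others as a further reference. Ganglia were taken at the same stage in all 3 genotypes, and the Meis2LoxP/LoxP strain had been backcrossed onto C57BL/6. Cre from the Isl1 locus acts wherever Isl1 is or was expressed, which covers postmitotic sensory neurons but also, for example, motor and sympathetic neurons. The study describes its replicates as biological in general. Neither the litter, nor the sex, nor the number of embryos behind a library is given, and p-values measure the spread between these libraries.

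Meis2 is a homeodomain transcription factor of the TALE class, a class that also holds the Pbx, Pknox and Tgif proteins. Meis and Pbx proteins bind DNA largely as partners of one another. In the DRG, Meis2 is known from low-threshold mechanoreceptors, the neurons that encode touch, and from proprioceptors, which encode muscle stretch. A whole ganglion also holds nociceptors, satellite glia, Schwann cells, vessels, blood and connective tissue, and it lies against bone, cartilage and muscle. In whole tissue, fewer cells of a type and less RNA per cell cannot be told apart.

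Exon 8 of Meis2, which Cre removes in the mutant, is shown because it marks what is lost from the transcript. It lies at chr2:116000131-116000276 on the reverse strand of GRCm38 (the mm10 build), is coding, and is in 6 of 6 coding transcripts. Its 146 bases leave a remainder of 2 after whole codons, and the capitals, from base 66 on, mark the codons with which the homeodomain begins.
Meis2 exon 8: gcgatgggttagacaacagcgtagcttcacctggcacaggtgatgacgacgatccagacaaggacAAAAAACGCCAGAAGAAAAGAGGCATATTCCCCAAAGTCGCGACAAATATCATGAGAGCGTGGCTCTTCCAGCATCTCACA
These bases are 1.21% of the gene's 12043 exonic bases, so a transcript without them can still be counted.

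Meis2 was lower in every mutant library. Its level, in cpm (counts relative to library size, scaled by TMM factors over the 9 libraries), was 95.5, 102 and 89.5 cpm in the Isl1Cre/+ libraries and 40.7, 40.8 and 41.2 cpm in the mutant libraries. The 3 mutant values lay close together and well below all controls, and WT libraries had 110, 103 and 95.4 cpm. The log2 fold change of Meis2, mutant relative to Isl1Cre/+, was -1.23 with a standard error (SE) of 0.0651, and its adjusted p was 0.00215 (quasi-likelihood test of edgeR, Benjamini-Hochberg adjustment). Isl1, which marks postmitotic sensory neurons and carries the Cre, had 165, 191 and 202 cpm in Isl1Cre/+ and 216, 170 and 178 cpm in mutant libraries. The groups overlapped for Isl1, with a log2 fold change of 0.013 (SE 0.113), while both lay below the 227, 273 and 284 cpm of WT.

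The 6 libraries held 23854607 to 28887829 counts, of which 99.4% to 99.5% fell on the genes tested. Mutant libraries differed more among themselves than controls did, with a chi-square per degree of freedom of 39.2 to 61.7 between mutant libraries and 12.6 to 20.5 between Isl1Cre/+ libraries. Mutant library 2 had the lowest median rank correlation with the other libraries of the series across genes (0.979, against 0.991 to 0.995 for the other 5). WT library 1 was close to it at 0.981. Mutant library 2 also held the most muscle and red cell RNA. Mutant library 1 was the only one of the 6 with RNA of the Y-linked gene Ddx3y at more than 0 cpm, with 112 cpm. Of the genes called higher below, 2 are Y-linked (Ddx3y and Kdm5d) and rest on this library alone.

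With the criterion that the study used, a 1.2-fold difference together with p below 0.05 before adjustment, 221 genes (1.67% of those tested) were called. In the mutant 186 were higher (1.41% of the genes tested) and 35 lower (0.265%), with median log2 fold changes of 1.26 and -0.37. With an adjusted p under 0.05, 1 gene passed, Meis2 itself (0.00758%), while 360 genes (2.73%) had a p under 0.05 before adjustment. Every mutant library lay above every Isl1Cre/+ library for 456 genes (3.45%) and below for 554 genes (4.2%), which held 99 of the 186 higher and 31 of the 35 lower genes. The split depended on scaling: with libraries scaled to their pan-neuronal genes, 207 genes were higher and 10 lower (95.4% higher, against 84.2%). Leaving out 1 library at a time gave 167 to 407 genes, the most without mutant library 1.

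**Figure D1:**
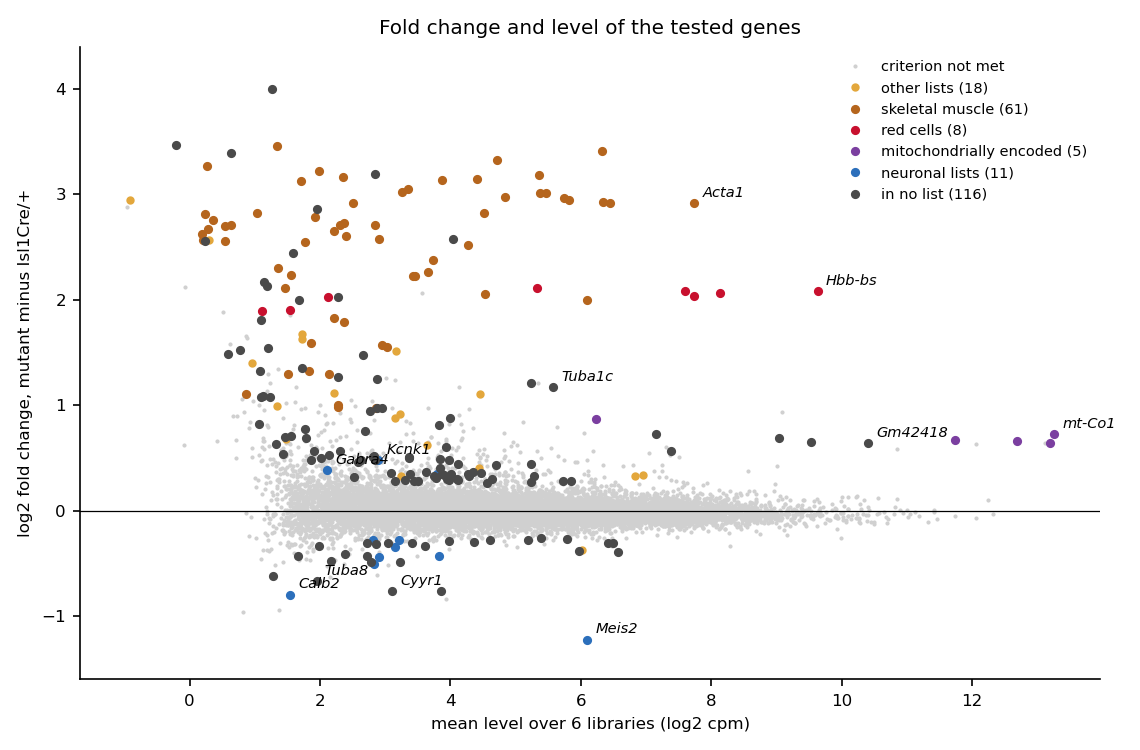
Log2 fold change (mutant minus Isl1Cre/+) of each tested gene against its mean level over the 6 libraries in log2 cpm, with genes meeting the criterion coloured by gene list. Called red cell genes have a median of 2.05 on the log2 scale, contractile muscle genes one of 2.66 over the tested list, genes of neuronal lists lie close to 0 except for a few such as Meis2 at -1.23, and the 2 Y-linked genes are beyond the axis.

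Skeletal muscle lists held 61 of the 186 higher genes and the red cell list 8. White cells and platelets, cartilage and bone, and mitochondrially encoded genes held 5 each, while 90 genes were in none of the lists. The 13 neuronal lists, with 391 tested genes, held 3 of the 186 higher and 8 of the 35 lower genes, which is 0.767% and 2.05% of the 391, beside 1.41% and 0.265% over all genes tested. Meis2 itself is among the 8. The lists were chosen with earlier results of these data known, so these shares are no test of the lists. Leaving out the red cell, cartilage and bone lists and the muscle lists except for the 2 myogenic genes, of which Mymk was higher (though not meeting the criterion without mutant library 2), 148 of 13101 genes met the criterion, 113 higher and 35 lower.

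Neuronal genes as a whole lay close to control levels. Over the 391 genes the median log2 fold change was -0.04, against 0.00029 over all genes tested, and 359 of them (91.8%) differed by less than 1.2-fold, as did 93.4% of all genes. List medians ran from -0.11 (glutamate receptors) to 0.02 (TALE homeodomain). Of the 24 pan-neuronal genes 0 met the criterion, with log2 fold changes between -0.17 and 0.06. Among them, Stmn2, a regulator of microtubules in growing axons, had 2652, 2861 and 2734 cpm in Isl1Cre/+ and 2980, 2536 and 2639 cpm in mutant libraries, and the groups overlapped. The lists for synaptic release (43 genes), sensory identity (14), nociceptors (22), sodium channels (13), calcium channels (18) and axon guidance (65) also held 0 genes that met it.

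The 3 mutant libraries differed among themselves in these lists. Mutant library 1 was the highest of the 3 in 11 of the 13 neuronal lists by summed level, and lay above all Isl1Cre/+ libraries in 10. Mutant library 2 lay below all Isl1Cre/+ libraries in 13 of 13. All mutant libraries lay below all Isl1Cre/+ libraries in 2 lists, axon guidance and TALE homeodomain, which holds Meis2 itself, and above them in 0. The pan-neuronal sum was 25371, 24712 and 25240 cpm in Isl1Cre/+ and 27998, 22052 and 23044 cpm in mutant libraries. Without mutant library 2, the median log2 fold change over the 391 neuronal genes was 0.015. That library held the most muscle and red cell RNA of the mutant and Isl1Cre/+ libraries. The part of this RNA in its lower neuronal levels was not tested.

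**Figure D2:**
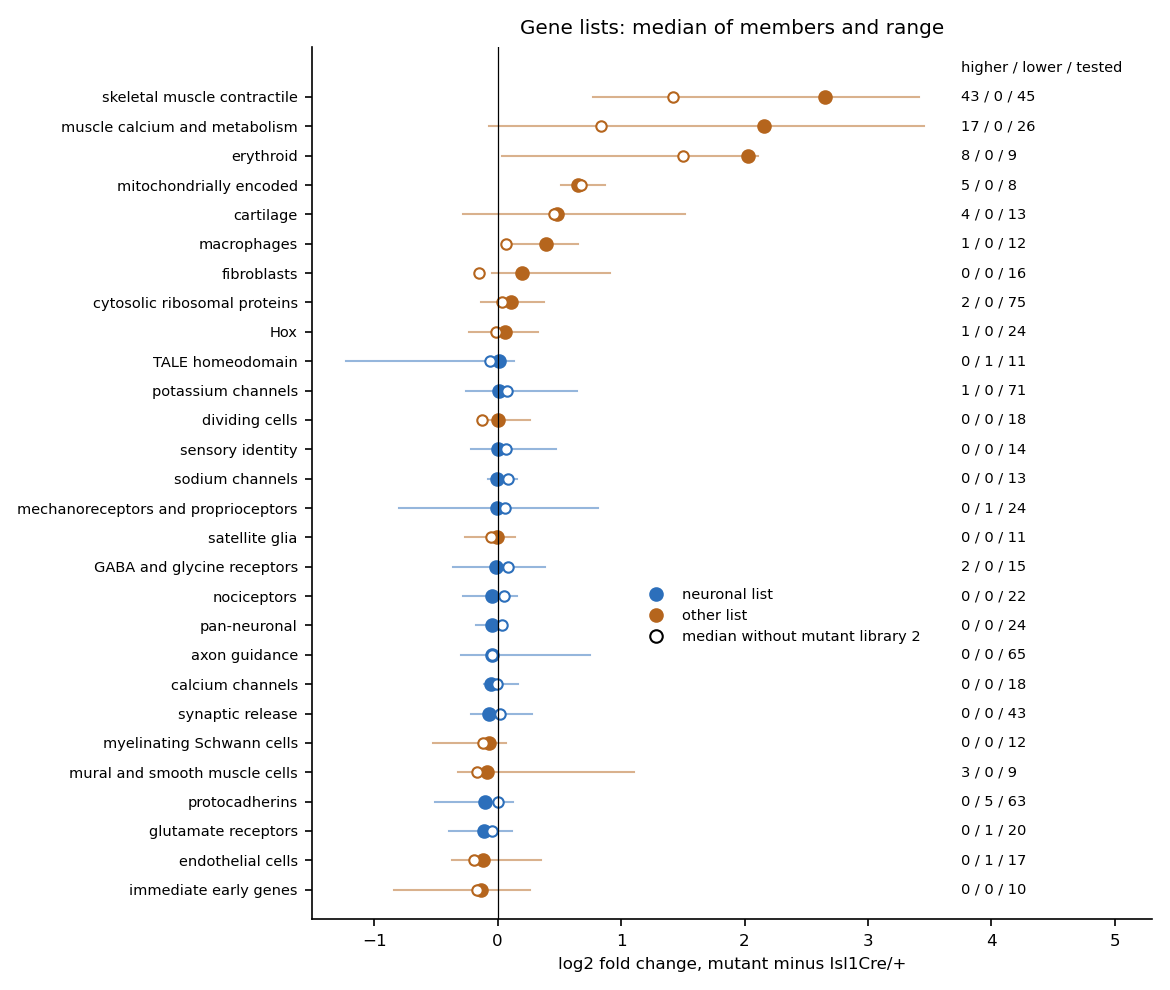
Median log2 fold change (filled points) and range over members (lines) of the gene lists with at least 8 tested genes, mutant minus Isl1Cre/+, with medians without mutant library 2 as open points and the numbers of genes higher, lower and tested at the right. Neuronal lists (blue) have medians from -0.11 to 0.02, while muscle lists move from 2.66 and 2.16 to 1.42 and 0.84 without mutant library 2.

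Markers of the neurons in which Meis2 is known were measured in both genotypes. Of 24 tested mechanoreceptor and proprioceptor genes, 1 met the criterion, Calb2, which encodes the calcium-binding protein calretinin. Calb2 had 3.57, 5.15 and 2.33 cpm in Isl1Cre/+ and 2.56, 2.01 and 1.76 cpm in mutant libraries. Mutant library 1 lay above Isl1Cre/+ library 3, so the groups overlapped. The log2 fold change of Calb2 was -0.80 (SE 0.318, unadjusted p = 0.0384, edgeR), and it met the criterion in 11 of 19 alternatives. Without Isl1Cre/+ library 2, the one at 5.15 cpm, Calb2 was at -0.48 and did not meet it. Of the other 23 genes, 22 had log2 fold changes between -0.16 (Whrn) and 0.22 (Calb1). Calb1 was at 0.35 without Isl1Cre/+ library 3 and met the criterion in 1 of 20 alternatives. Spp1, also a gene of bone, was at 0.82 (unadjusted p = 0.0529, edgeR) and did not meet it, though it met it in 8 of 20 alternatives, with values from -0.46 to 1.21.

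Receptors of these neurons gave small values. Ntrk3, the receptor for the neurotrophin NT3, had 231, 300 and 248 cpm in Isl1Cre/+ and 326, 287 and 277 cpm in mutant libraries, and its log2 fold change was 0.19. Without Isl1Cre/+ library 2 it was 0.31, and Ntrk3 met the criterion in 1 of 20 alternatives. Ntrk2, the receptor for BDNF, had 197, 232 and 220 cpm in Isl1Cre/+ and 209, 205 and 197 cpm in mutant libraries, with -0.09 on the same scale. Both genes had overlapping groups. Ret, a receptor for ligands of the GDNF family, was at -0.03, the transcription factor Maf at 0.05, Pvalb, which marks proprioceptors, at 0.02, and Piezo2, the ion channel that transduces touch, at -0.04 on the log2 fold change scale.

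Nociceptor genes mark other neurons of the same ganglia. Their 22 tested members had log2 fold changes between -0.28 (Trpv1, the capsaicin receptor) and 0.16 (Calca, which encodes CGRP). Trpv1 had 44.6, 48.3 and 62.9 cpm in Isl1Cre/+ and 41.5, 43.3 and 43.5 cpm in mutant libraries. The 3 mutant values of Trpv1 lay below the controls, but its unadjusted p was 0.0588 in edgeR. Its log2 fold change was -0.12 without Isl1Cre/+ library 3 and -0.38 without Isl1Cre/+ library 1, and Trpv1 met the criterion in 3 of 20 alternatives.

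Of the other TALE homeodomain genes, 10 were tested and 0 met the criterion, with log2 fold changes from -0.13 (Meis3) to 0.13 (Pbx3). Meis1, a close relative of Meis2, had 18.9, 20.2 and 19.1 cpm in Isl1Cre/+ and 22.6, 17.8 and 20.3 cpm in mutant libraries. Pbx3, of the family of partners of Meis proteins on DNA, had 23.6, 28.0 and 22.9 cpm in Isl1Cre/+ and 24.5, 30.8 and 26.4 cpm in mutant libraries. Neither gene separated the groups.

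Among receptors for transmitters, 2 of 15 GABA and glycine receptor genes were higher and 1 of 20 glutamate receptor genes was lower. Gabra4, an alpha subunit of the GABA(A) receptor, had 3.54, 3.86 and 3.88 cpm in Isl1Cre/+ and 4.62, 5.02 and 5.05 cpm in mutant libraries. Every mutant library lay above every control for Gabra4. Its log2 fold change was 0.38 (SE 0.136, unadjusted p = 0.0256, edgeR), and the criterion was met in 10 of 20 alternatives. The median log2 fold change of the GABA and glycine receptor list was -0.013.

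Grid1, a glutamate receptor of the delta class, had 10.5, 9.54 and 10.5 cpm in Isl1Cre/+ and 8.87, 8.10 and 8.25 cpm in mutant libraries. The mutant libraries all lay below the controls, with a log2 fold change for Grid1 of -0.28 (SE 0.0947, unadjusted p = 0.0206, edgeR) that met the criterion in 10 of 20 alternatives. Of 71 potassium channel genes tested, 1 met the criterion. Kcnk1, a leak channel, had 5.58, 5.90 and 7.06 cpm in Isl1Cre/+ and 9.21, 7.83 and 8.78 cpm in mutant libraries. The libraries did not overlap for Kcnk1, and its log2 fold change of 0.48 (SE 0.131, unadjusted p = 0.00744, edgeR) met the criterion in 20 of 20 alternatives.

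Protocadherins, adhesion proteins by which neurons tell their own processes from those of others, made up 5 of the 8 lower genes of the neuronal lists: Pcdhga9, Pcdha11, Pcdhga1, Pcdhga4 and Pcdhb4. Pcdhga9 had 7.86, 8.97 and 8.08 cpm in Isl1Cre/+ and 6.43, 5.51 and 5.54 cpm in mutant libraries, with no overlap and a log2 fold change of -0.51 (SE 0.119). The 5 genes met the criterion in 7 (Pcdhb4) to 19 (Pcdhga9) of 20 alternatives. Pcdhga9, Pcdha11, Pcdhga1 and Pcdhga4 met it whichever of the 6 libraries was left out, and Pcdhb4 in 1 of these 6 fits. Of 63 tested protocadherins 5 were lower and 0 higher, beside 35 lower of 13200 genes tested (0.265%), in a family that the study had named from the same libraries. Over all 63 the median log2 fold change was -0.10, and without mutant library 2 it was 0.0065. Genes within the alpha cluster and within the gamma cluster share exons, and other genes on the same strand cover 37.9% of the exonic bases of Pcdhga9. The split of reads among the genes of these 2 clusters is therefore uncertain.

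Skeletal muscle genes made up the biggest group of higher genes. Of 45 tested genes of the contractile apparatus 43 were higher and 0 lower, with a median log2 fold change of 2.66, and of 26 genes of muscle calcium handling and metabolism 17 were higher and 0 lower, with a median of 2.16. Acta1, the actin of skeletal muscle, had 41.2, 82.7 and 25.9 cpm in Isl1Cre/+ and 62.5, 821 and 250 cpm in mutant libraries. Myh8, the perinatal myosin heavy chain, had 23.0, 8.40 and 9.74 cpm in Isl1Cre/+ and 10.8, 358 and 70.9 cpm in mutant libraries. For both genes mutant library 1 lay within the range of the controls and library 2 was far above all others. Log2 fold changes were 2.92 for Acta1 (SE 0.880) and 3.41 for Myh8 (SE 1.12). They were, without mutant library 2, 1.65 for Acta1 and 1.57 for Myh8, and Myh8 did not meet the criterion (met in 11 of 20 alternatives).

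The same libraries led across the muscle genes. Mutant library 2 was the highest of the 6 for 61 of the 61 higher muscle genes, and mutant library 1 was not above every control for 42 of them. The 2 muscle lists together summed to 466, 550 and 323 cpm in Isl1Cre/+, to 519, 4565 and 1397 cpm in mutant and to 1294, 460 and 2119 cpm in WT libraries. The mutant and the WT groups each held libraries with much and with little muscle RNA, while the Isl1Cre/+ libraries were all low. Without mutant library 2, 29 contractile genes and 10 of calcium handling and metabolism met the criterion, with list medians of 1.42 and 0.84. Sypl2, a protein of the muscle triad, was one of the 19 muscle genes that separated the groups, with 0.443, 0.357 and 0.459 cpm in Isl1Cre/+ and 0.639, 9.92 and 3.41 cpm in mutant libraries, and a log2 fold change of 3.46 that was 2.24 without mutant library 2.

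**Figure D3:**
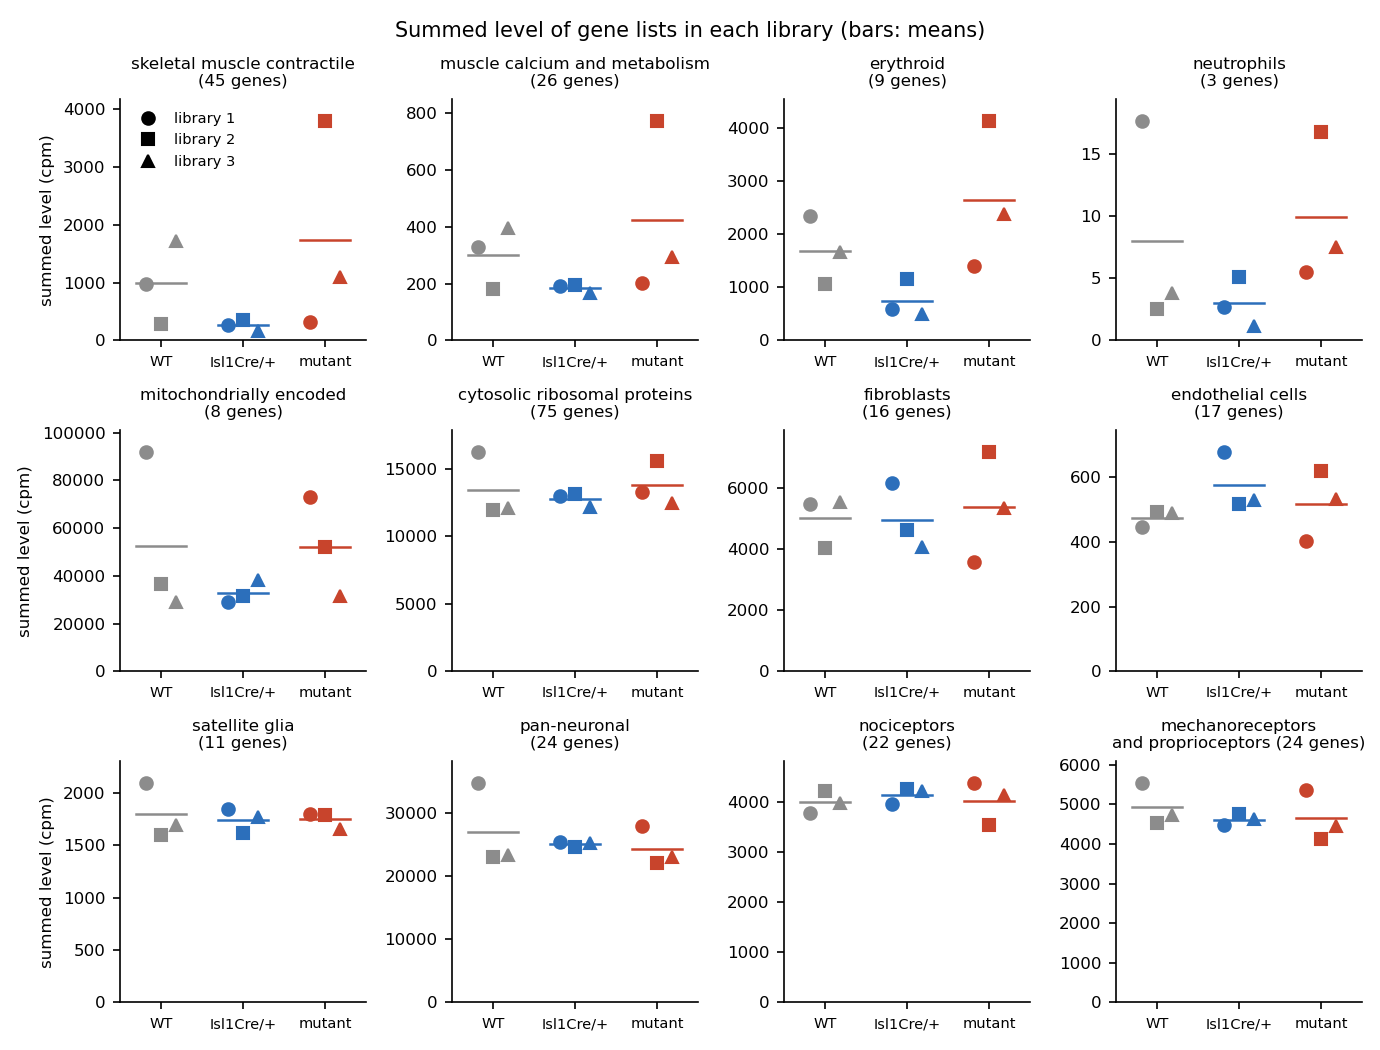
Summed level in cpm of 12 gene lists in each of the 9 libraries, by genotype, with marker shapes for the library number and bars for the group means. The muscle lists reach 3792 and 773 cpm in mutant library 2 and at most 356 and 194 cpm in an Isl1Cre/+ library, whereas the pan-neuronal list varies between 22052 and 34822 cpm over all 9 libraries.

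Genes of red cells were also higher. Of 9 tested red cell genes 8 met the criterion, each with every mutant library above every control. Among them were the globins Hba-a1, Hba-a2, Hbb-bs and Hbb-bt, the haem synthesis enzyme Alas2, the anion exchanger Slc4a1 and the exonuclease Isg20. Hbb-bs, an adult beta globin, had 224, 505 and 181 cpm in Isl1Cre/+ and 649, 2045 and 1156 cpm in mutant libraries, and its log2 fold change was 2.08 (SE 0.510, unadjusted p = 0.00420, edgeR). These named genes had log2 fold changes between 1.90 (Isg20) and 2.11 (Alas2), and all 8 called genes of the list met the criterion without mutant library 2, with Slc4a1 at 1.34 in place of 2.03. Ank1, which neurons also express, was the gene that did not, at 0.04. The red cell list summed to 599, 1150 and 504 cpm in Isl1Cre/+, 1396, 4134 and 2389 cpm in mutant and 2338, 1064 and 1660 cpm in WT libraries. Relative to WT, Hbb-bs was at 0.73 in the mutant and -1.34 in Isl1Cre/+ on the log2 scale, in comparisons that share libraries with each other and with the main one.

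All 3 tested neutrophil genes, S100a8, S100a9 and Ngp, were higher from low levels. S100a9, which encodes a calprotectin subunit, had 1.43, 2.75 and 0.529 cpm in Isl1Cre/+ and 3.08, 9.24 and 2.71 cpm in mutant libraries. The groups overlapped for S100a9 and Ngp. When mutant library 2 was left out, 1 of the 3, Ngp, met the criterion (a log2 fold change of 2.12 in place of 2.57), while S100a9 (0.89 in place of 1.67) and S100a8 (0.96 in place of 1.40) did not, and the list median was 0.96 in place of 1.67. Of 12 macrophage genes 1 was higher, the lysozyme gene Lyz2, with a list median of 0.39. Without mutant library 2 the median of the macrophage list was 0.068 and 0 of its genes met the criterion, with Lyz2 at 0.43. Cpa3, a protease of mast cells, was higher at 0.99.

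Other tissues in or next to the ganglion gave mixed values. Of 13 cartilage genes 4 were higher, Col10a1, Acan, Sox9 and Hapln1, and of 6 bone genes 1, Mmp13. Without mutant library 2, 2 cartilage genes and 0 bone genes met the criterion. Of 9 mural and smooth muscle genes 3 were higher, the contractile genes Acta2, Myh11 and Tagln, while 5 had negative values, such as the pericyte genes Abcc9 (-0.32), Rgs5 (-0.26) and Pdgfrb (-0.19), and the list median was -0.082. Without mutant library 2, 5 of the 9 met the criterion, with Abcc9 and Pdgfrb lower at -0.42 and -0.30, Acta2 at 0.56 in place of 1.1 and Tagln at 0.46 in place of 0.88. Col10a1, a collagen of hypertrophic cartilage, had 3.27, 8.72 and 1.94 cpm in Isl1Cre/+ and 8.57, 13.9 and 17.4 cpm in mutant libraries, with mutant library 1 just under Isl1Cre/+ library 2. The log2 fold change of Col10a1 was 1.51, and 2.34 without Isl1Cre/+ library 2, where that of Mmp13 was 2.54 in place of 1.63. Of 17 endothelial genes 0 were higher and 1 was lower, Kdr, a VEGF receptor, which had 84.1, 65.1 and 70.1 cpm in Isl1Cre/+ and 45.1, 60.7 and 63.6 cpm in mutant libraries. The log2 fold change of Kdr was -0.37, and without mutant library 1 it was -0.24 and Kdr did not meet the criterion. The endothelial list had 15 negative values of 17 and a median of -0.12. Without mutant library 2, 4 of its genes met the criterion, beside 217 of 13200 over all genes tested. With the muscle covariate 8 did, all lower, in a fit that called 598 of 13200 genes lower. Fibroblasts (16 genes), satellite glia (11), myelinating Schwann cells (12) and dividing cells (18) held 0 genes that met the criterion. With the muscle covariate 9 fibroblast genes were lower, again beside 598 of 13200 over all genes tested. Fabp7, a marker of satellite glia, was at 0.10. Of 3 sympathetic genes 1 met the criterion. Dbh, which makes noradrenaline, had 0, 0.357 and 0 cpm in Isl1Cre/+ and 0.376, 0.494 and 1.97 cpm in mutant libraries and met it (unadjusted p = 0.0458, edgeR), though not without mutant library 3, Isl1Cre/+ library 1 or Isl1Cre/+ library 3. Slc6a2, the noradrenaline transporter, had 0.0340, 0.286 and 0.0353 cpm in Isl1Cre/+ and 0.0752, 0.266 and 2.38 cpm in mutant libraries and did not meet it (unadjusted p = 0.0779, edgeR). Mutant library 3 was the highest of the 6 for both. Th, the first enzyme of that pathway and also found in DRG neurons, was at -0.14.

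Mitochondrially encoded genes were led by another mutant library. All 8 tested had positive log2 fold changes, between 0.51 and 0.87, and 5 met the criterion. Of these, mt-Co1, a subunit of cytochrome oxidase, had 6339, 7301 and 8410 cpm in Isl1Cre/+ and 16823, 12559 and 7156 cpm in mutant libraries. Mutant library 1 was the highest in 4 of the 5, and mutant library 3 lay within the range of the controls for mt-Co1. Without mutant library 1 the log2 fold change of mt-Co1 was 0.42 in place of 0.73, and it did not meet the criterion. The summed level of the list was 28997 to 38238 cpm in Isl1Cre/+, 31530 to 73204 cpm in mutant and 29150 to 91948 cpm in WT libraries.

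Gm42418, an RNA on chromosome 17 whose exons lie for 99.5% opposite to other annotated genes, one of them a ribosomal RNA gene, had 1085, 1114 and 974 cpm in Isl1Cre/+ and 1631, 1754 and 1548 cpm in mutant libraries. The groups were well apart, with a log2 fold change for Gm42418 of 0.64 (SE 0.0875) that met the criterion in 20 of 20 alternatives. WT libraries had 1353, 594 and 827 cpm of it. The ribosomal RNA genes n-R5-8s1 (log2 fold change 1.99), mt-Rnr1 (0.69) and mt-Rnr2 (0.65) were also called higher, each with overlapping libraries. Whether the counts of Gm42418 hold reads of ribosomal RNA was not tested. Of 75 cytosolic ribosomal protein genes, 2 were higher, Rps21 and Rpl35, with a list median of 0.11. The call of Rpl35 was lost in 4 of the 6 fits that left out 1 library, and without Isl1Cre/+ library 1 it was at 0.21 in place of 0.32.

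The lower genes in none of the functional lists numbered 26, and 23 of them had every mutant library below every control. D130017N08Rik, a long intergenic RNA on chromosome 5, had 22.0, 16.8 and 15.6 cpm in Isl1Cre/+ and 11.7, 8.97 and 11.5 cpm in mutant libraries, and its log2 fold change was -0.76 (SE 0.162, unadjusted p = 0.00194, edgeR). Cyyr1, on chromosome 16, had 11.1, 9.94 and 11.4 cpm in Isl1Cre/+ and 5.07, 5.66 and 8.37 cpm in mutant libraries, and was at -0.77. The WT libraries had 10.8, 15.9 and 9.90 cpm of D130017N08Rik and 3.39, 8.74 and 8.20 cpm of Cyyr1. Against WT, in a comparison that shares the mutant libraries, their log2 fold changes were -0.19 for D130017N08Rik and -0.09 for Cyyr1.

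A230077H06Rik, an antisense RNA on chromosome 7 that overlaps Vstm2b over 4.25% of its exonic bases, had 12.2, 9.87 and 10.6 cpm in Isl1Cre/+, 7.86, 8.63 and 6.77 cpm in mutant and 10.8, 10.1 and 13.1 cpm in WT libraries. Every mutant library of A230077H06Rik was below every library of the other genotypes, with log2 fold changes of -0.49 relative to Isl1Cre/+ and -0.55 relative to WT. Vstm2b itself was lower at -0.31 relative to Isl1Cre/+, with overlapping libraries, and met the criterion in 8 of 20 alternatives. Tuba8, an alpha tubulin, had 5.45, 3.54 and 5.22 cpm in Isl1Cre/+, 2.86, 3.46 and 2.59 cpm in mutant and 4.37, 3.61 and 4.38 cpm in WT libraries, with log2 fold changes of -0.67 and -0.47. Further lower genes were Prex1, an activator of Rac (-0.39), and Adgrg6, an adhesion receptor that Schwann cells need for myelination (-0.30), which met the criterion in 18 of 20 and 15 of 20 alternatives. P2ry14, a receptor for UDP sugars (-0.48), Zfp366 (-0.49) and 9530036M11Rik (-0.62) met it in fewer, 10 of 19, 12 of 20 and 7 of 19. Without Isl1Cre/+ library 1, Vstm2b was at -0.20 and Zfp366 at -0.31, and neither met it.

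Of the 90 higher genes in none of the lists, 59 had every mutant library above every control, and mutant library 2 was the highest for 62. Several are genes of striated muscle, such as Klhl31 (log2 fold change 3.39) and Mypn, a protein of the sarcomere (2.14), which were at 2.04 and 1.33 without mutant library 2. Tuba1c, another alpha tubulin, had 23.4, 29.2 and 35.1 cpm in Isl1Cre/+ and 79.2, 56.1 and 62.2 cpm in mutant libraries. It was chosen for mention after its values were seen. The log2 fold change of Tuba1c was 1.17 (SE 0.175, unadjusted p = 0.000219, edgeR) and met the criterion in 20 of 20 alternatives. WT libraries had 36.9, 70.1 and 70.5 cpm of Tuba1c, and relative to WT the mutant was at 0.15 and Isl1Cre/+ at -1.01 on the log2 scale.

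**Figure D4:**
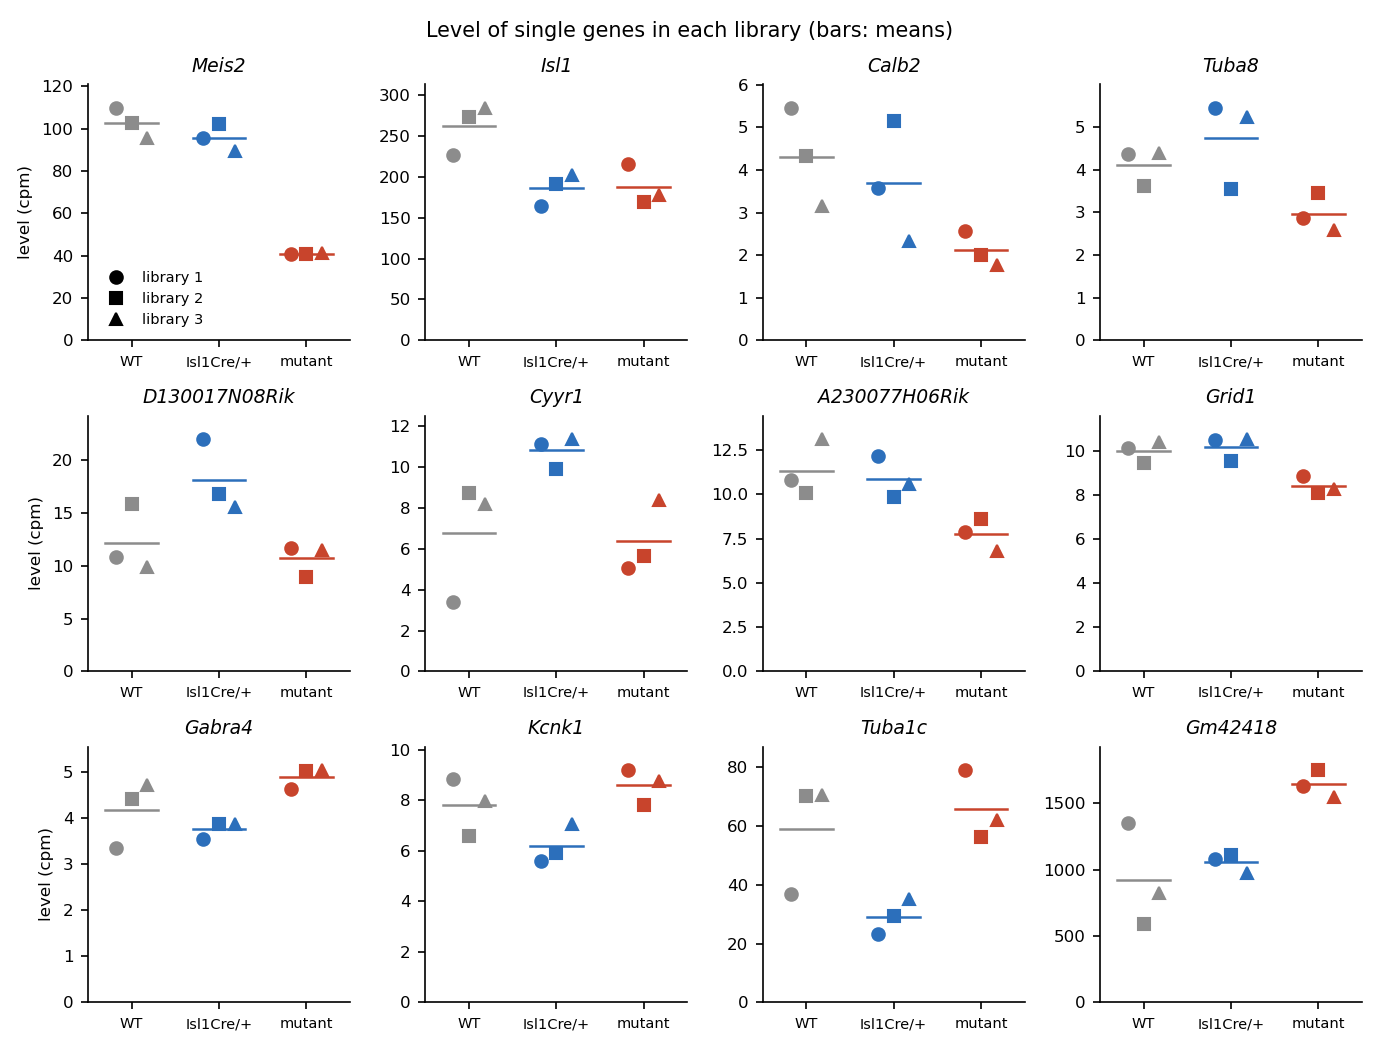
Level in cpm of 12 genes in each library by genotype, with marker shapes for the library number and bars for group means. Meis2 has 40.7 to 41.2 cpm in mutant libraries and at least 89.5 cpm in all others, A230077H06Rik and Grid1 have every mutant library below all others, and Tuba1c has mutant libraries between 56.1 and 79.2 cpm, above every Isl1Cre/+ library but overlapping WT.

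Of 16 genes that the study named for its RNA measurements, 6 were higher (Gm42418, Hes5, Mrps28, Rps21, Lypd6 and Plcd1) and 5 lower (Calb2, Tuba8, A230077H06Rik, Creg2 and Grid1). Adgrg3, Gm20163, Oprd1, Whrn and Lrp2 did not meet the criterion. Since these genes were chosen on the same libraries, the counts are no independent evidence of their direction. Hes5, a Notch target, had 2.96, 4.15 and 3.70 cpm in Isl1Cre/+ and 5.11, 5.74 and 4.68 cpm in mutant libraries. Rps21, a protein of the small ribosomal subunit, had 107, 110 and 113 cpm in Isl1Cre/+ and 142, 152 and 121 cpm in mutant libraries. For both the mutant libraries lay above all controls, with log2 fold changes of 0.52 for Hes5 and 0.33 for Rps21. Of the exonic bases of Hes5, 31.8% lie opposite to exons of another gene, and whether the counts used strand is not given in the sources used here.

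Promoter windows, from 250 bases before to 50 after the RefSeq start, were searched for TGACAG, the core of the sequence that Meis proteins bind, on both strands. Read on the other strand the motif is CTGTCA. It stood in the window of 4 of 24 lower genes with a window in the table (16.7%), of 27 higher genes (22% of those with a window) and of 1935 of 10189 tested genes (19%). The window of A230077H06Rik, at chr7:40898275-40898574 on the reverse strand (RefSeq, GRCm38.p6), is shown because this gene was lower than in both other genotypes, and the capitals mark its only match.
A230077H06Rik: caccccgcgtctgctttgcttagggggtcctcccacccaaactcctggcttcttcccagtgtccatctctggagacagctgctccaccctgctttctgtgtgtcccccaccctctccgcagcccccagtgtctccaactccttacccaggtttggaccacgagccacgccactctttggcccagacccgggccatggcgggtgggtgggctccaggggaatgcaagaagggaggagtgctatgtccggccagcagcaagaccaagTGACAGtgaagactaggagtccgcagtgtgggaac
The match begins at base 266 of the window and is a match of letters only.

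The comparison was fitted again without mutant library 2 and with covariates. Without mutant library 2, 131 of the 221 met the criterion, 110 of the 186 higher and 21 of the 35 lower. With the summed muscle level of each library as a covariate, 50 of the 186 higher and 16 of the 35 lower genes did. Of the higher muscle genes 39 of 61 met it without that library, and of the higher red cell genes 8 of 8. With the covariate 3 of 61 and 6 of 8 did, where the covariate is itself the sum of the muscle genes. Meis2 was at -1.22 without mutant library 2 and at -1.25 with the covariate. Of the lower genes of the neuronal lists, 5 of 8 met it without that library and 4 of 8 with the covariate. Calb2 was not among them, at -0.75 and -0.79 with unadjusted p of 0.0697 and 0.0839 in edgeR. In the fit with the muscle covariate 795 genes met the criterion, 598 of them lower. With the summed red cell level as covariate, 13 of the 186 higher and 2 of the 35 lower genes met it, while Meis2 was at -1.33. That fit called 193 genes, 94 higher and 99 lower (48.7% higher, against 84.2%).

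**Figure D5:**
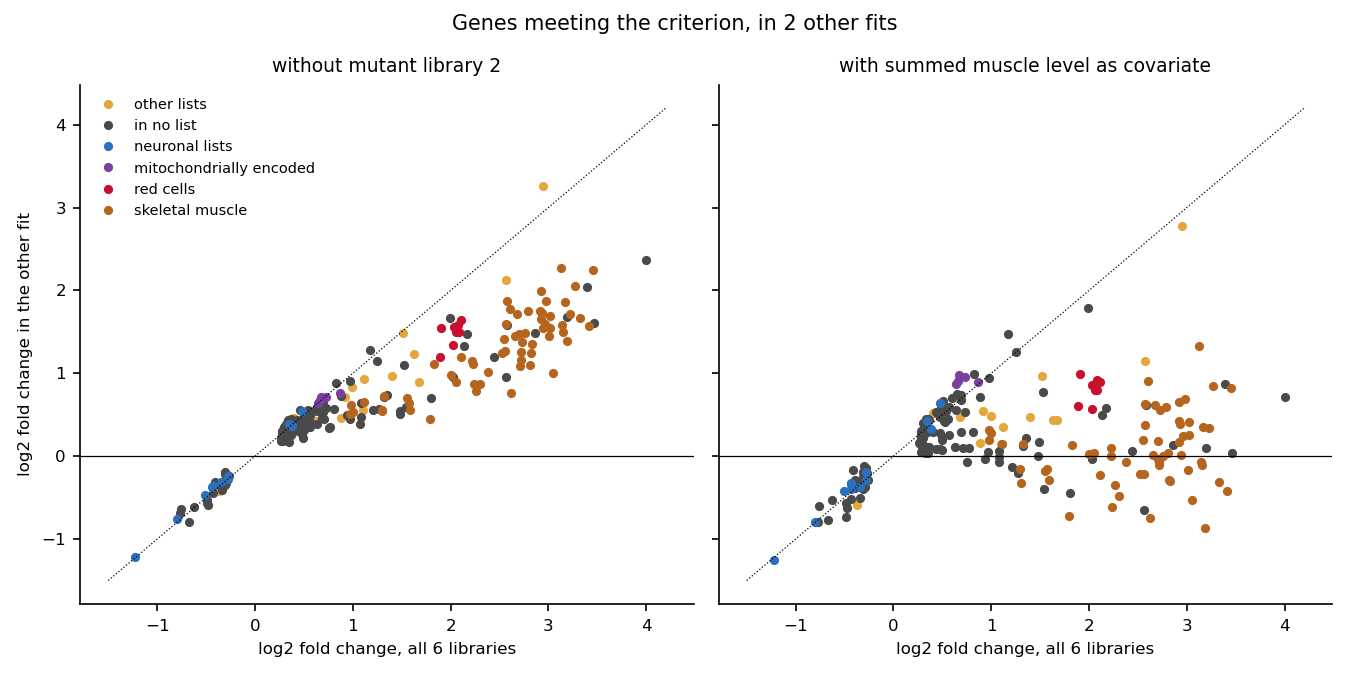
Log2 fold changes of the genes meeting the criterion with all 6 libraries (horizontal axis) against those without mutant library 2 (left) and with the summed muscle level as covariate (right), coloured by gene list, with a line of equality and the 2 Y-linked genes left out. Of the called muscle genes 39 of 61 meet the criterion in the left fit and 3 of 61 in the right one, whose covariate is made from muscle genes, while Meis2 lies on it at -1.22 and -1.25.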

How the data were processed

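The authors extracted RNA of DRGs from E18.5 embryos, selected poly(A) RNA, made libraries with unique molecular identifiers (CORALL kit), sequenced them single-end, aligned reads to mm10 with STAR 2.7.10 and deposited counts per gene from HTSeq 0.6. The strand option and the annotation release are not given in the sources used here. The table also holds the authors' own fold changes and p-values, which were not used.

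From the deposited counts, genes that reached 100 counts in any library were fitted with edgeR 4.0.16 (R 4.3.3): the 6 libraries of both groups with TMM factors over these 6, quasi-likelihood test, Benjamini-Hochberg adjustment. The levels printed in cpm used TMM factors over the 9 libraries. The criterion was a fold of 1.2 or more and p under 0.05 before adjustment. Alternatives used limma 3.58.1, DESeq2 1.42.0, other scalings, filters and covariates. The table's symbols include 15 that had become dates, which were named again by gene ID, and 55154 of 55247 IDs matched the annotation (GENCODE, GRCm38). Levels in the text that are sums over a list add cpm.

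The comparison and the gene lists were chosen with earlier results of these data known. Genes named are Meis2, Isl1, the 10 largest and 10 smallest changes without overlap, called genes of neuronal lists, the most abundant members of each list and the genes the study named. Other genes in the text were chosen after their values were seen. Same-numbered libraries were correlated at -0.44, 0.019 and 0.16 in their deviations from group means, so the numbers do not pair the samples. Some genes that this rule gives are not reported here.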

Additional observations from a re-analysis of the deposited data

How the results depend on the processing

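The log2 fold change of Meis2 stayed between -1.33 and -1.17 and met the criterion in 20 of 20 alternatives, and its adjusted p ran from 2.47e-47 (DESeq2) to 0.138 (mitochondrial covariate). Adjusted p-values here are from edgeR unless DESeq2 is named. The number of genes meeting the criterion was 1028 with no filter on low counts, 134 with at least 100 counts in each of the 6 libraries, 795 with the muscle covariate, 360 with no fold requirement and 138 with a fold of at least 1.5. It ran from 167 to 407 when 1 library was left out. Genes with an adjusted p under 0.05 numbered 2 with no filter, 10 with DESeq2, 6 with the muscle covariate, 5 with the red cell covariate and 0 with the mitochondrial covariate, which was chosen after seeing the data and left 232 genes with p under 0.05 before adjustment. They numbered 0 to 1 when 1 library was left out, with 0 without mutant library 3, where the adjusted p of Meis2 was 0.0569 and 574 genes had p under 0.05 before adjustment.

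With a replicate block 177 genes met the criterion and 0 had an adjusted p under 0.05, with 221 under 0.05 before adjustment and Meis2 at an adjusted p of 0.102 in the edgeR test. The samples share only a number, since same-numbered libraries did not deviate together.

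Some genes changed sign with a covariate. With the muscle covariate the log2 fold change of Myh8 was -0.43 and that of Mymk -0.75. With the red cell covariate those of muscle genes were -1.11 (Acta1), -1.65 (Myh8), -0.17 (Sypl2), -0.015 (Klhl31), -0.16 (Mypn) and -1.61 (Mymk), and those of other tissues -0.33 (Acan), -0.63 (Mmp13), -0.12 (Acta2) and -0.068 (Tagln). Those of blood genes were -0.096 (Hba-a1), -0.081 (Hba-a2), -0.034 (Hbb-bt), -0.029 (Alas2), -0.25 (Slc4a1), -0.45 (S100a9), -0.26 (S100a8), -0.072 (Ngp) and -0.26 (Lyz2), where the covariate is itself made from most of these red cell genes. For the others the cause was not tested. Of genes that did not meet the criterion, Spp1 was at -0.46 and Pbx3 at -0.27 with the red cell covariate. Of 57 called genes named in the text besides Meis2, the Y-linked genes and the ribosomal RNA genes, 26 met the criterion whichever library was left out. The other 31 did not without at least 1 of the libraries. With 3 libraries in a group, 1 library can decide whether a gene of low level meets the criterion.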
